A study of Mus musculus with 26 samples.

Results

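EpCAM-negative and EpCAM-positive tumour cells from the same kind of mammary tumour were compared in control mice, across all expressed genes. The comparison took 12 of the 26 libraries of the series: 6 of sorted Her2(+)EpCAM(-) cells against 6 of sorted Her2(+)EpCAM(+) cells, chosen by their labelled sort gate and treatment and not by any measured value. E-A14, a Her2-expressing mouse mammary tumour cell line, had been placed in a mammary fat pad of mice of strain FVB/N, aged 6 to 8 weeks. The hosts had received 100 µg each of rat IgG2a and rat IgG2b 2 times a week, starting 2 weeks before implantation, as isotype control for T cell depletion, so their T cells had not been depleted. Tumours were taken at their growth end-point on day 47, digested, and sorted after dead cells and cells with surface CD90, CD105 or CD45 had been gated out. The other libraries of the series were 6 of each fraction from tumours grown under anti-CD4 and anti-CD8a antibodies and taken on day 20, and 2 of the cultured line. All tumours came from 1 cell line. Per the series design both fractions were sorted from each of 6 control tumours, but the labels do not say which EpCAM-negative library shares a tumour with which EpCAM-positive one, and p-values therefore measure the spread between these libraries.

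EpCAM is a surface adhesion protein of epithelial cells, and cells that lose it together with E-cadherin, tight junctions and keratins are described as having undergone epithelial-mesenchymal transition (EMT). In that process epithelial cells give up apical-basal polarity and cell-cell contacts and take on vimentin filaments, matrix production and matrix-degrading proteases. Transcriptional repressors of the ZEB and SNAI families are known to start it and to bind short E-box sequences in the promoters of epithelial genes, while the splicing factors ESRP1 and ESRP2 and the OVOL, GRHL and ELF factors keep the epithelial state.

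The 12 libraries held between 26895429 and 38740143 counts assigned to genes, and within a fraction replicate libraries correlated across genes at a median r of 0.975 (EpCAM-negative) and 0.966 (EpCAM-positive) on log2 CPM. The unit of level is CPM, a gene's count relative to its library's effective size, and a level is printed as the median of 6 libraries with the lowest and highest in brackets. A gene was called when its Benjamini-Hochberg adjusted p was under 0.05 in edgeR's quasi-likelihood test. Changes are log2 of EpCAM-negative over EpCAM-positive ± SE, with 6 libraries per fraction. EpCAM-negative libraries had fewer genes with a count (18174 ± 450 against 19045 ± 655, mean ± SD; exact permutation test, two-sided, adjusted p = 0.0476 over 4 library measures). The 50 most abundant genes took 21.8 ± 1.07% of their counts against 16.4 ± 1.30% (exact permutation p = 0.00216, the smallest that 6 against 6 libraries can give, adjusted p = 0.00866). EpCAM-positive library 1 stood apart from the other 5 of its fraction in class II genes and had the most genes detected, 20135.

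The sorted gates showed in the transcripts. Epcam itself was at a median of 1233 CPM (815 to 1416) in EpCAM-positive libraries and at 1.59 CPM (1.06 to 2.39) in EpCAM-negative ones, a change of -9.49 ± 0.40 (adjusted p = 4.91e-15). No library of one fraction overlapped the other. The mouse Erbb2 feature, which encodes Her2, stood at a median of 126 CPM (109 to 135) against 58.1 CPM (50.1 to 59.9), a change of -1.13 ± 0.09 (adjusted p = 3.07e-10). The separate feature for the activated rat Neu transgene went the other way, at a median of 287 CPM (266 to 361) against 586 CPM (463 to 646), a change of 0.92 ± 0.15 (adjusted p = 3.56e-05). Erbb2 and rat Neu are near-identical orthologues between which reads could be split, so both values are uncertain. Ptprc, which encodes the excluded CD45, did not exceed 1.82 CPM in any of the 12 libraries, a change of -3.66 ± 0.87 (adjusted p = 0.00227; -5.06 without EpCAM-negative library 1). Eng, which encodes the excluded CD105, was not called, with a change of -0.41 ± 0.27 (adjusted p = 0.274). Thy1, which encodes CD90, did not pass the filter on low counts.

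Of 16637 tested genes, 4642 were called, which is 27.9%. The numbers of calls in the 2 directions were close, 2233 higher (13.4%) and 2409 lower (14.5%) in EpCAM-negative cells, but their sizes were not. Counts within gene lists below are to be read beside these 2 shares. The median called gain was 0.57 on the log2 scale and the median called loss -1.19, beside a median of -0.01 over all tested genes. Among calls of size 1 or more in log2 units, 550 were higher (3.31%) and 1304 lower (7.84%). With only the 12 IgG libraries in the fit, 529 were higher and 888 lower. Among genes with a mean of at least 5 CPM over both fractions, the main fit gave 368 higher and 483 lower. At a size of at least 4 there were 17 higher and 559 lower. Gains and losses of that size were counted again among the 10155 genes with a mean of at least 5 CPM over both fractions, with 0 higher and 119 lower. A gene near 0 in one fraction enters that count through its level in the other. With EpCAM-positive library 1 left out, genes changed by at least 4 numbered 34 higher and 540 lower in all, and 0 and 118 at 5 CPM or more; with only the 12 IgG libraries in the fit, no gained gene and 248 lost ones reached that size, and with DESeq2 7 and 468 did. EpCAM-negative cells thus differed from EpCAM-positive cells by a set of deep losses against a background of shallow gains. In bulk libraries such as these, fewer cells expressing a gene and less RNA per cell cannot be told apart.

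**Figure D1:**
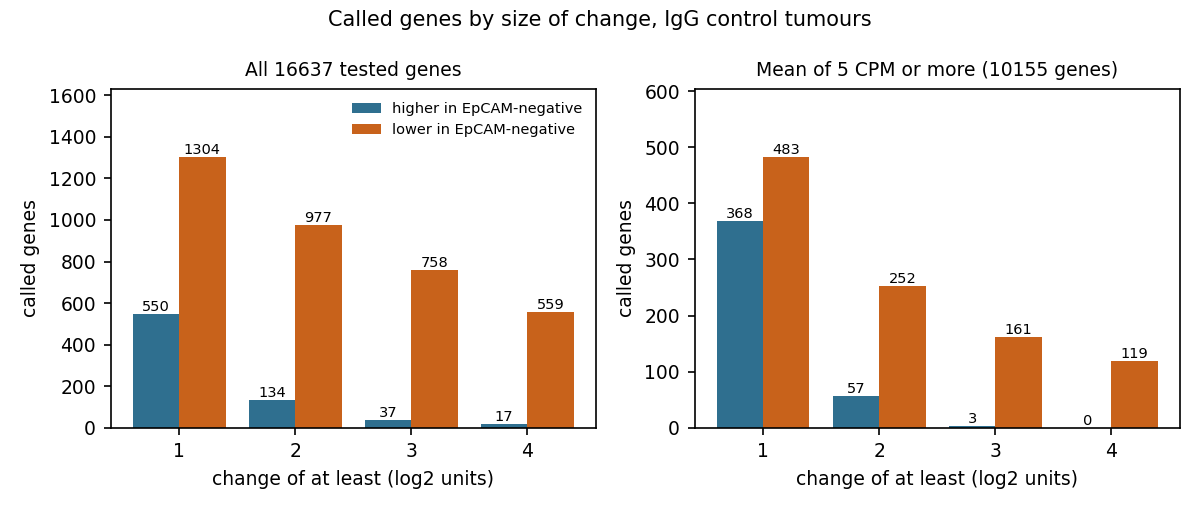
Numbers of called genes (y axis) whose log2 change was at least 1, 2, 3 or 4 (x axis), blue for higher and orange for lower in EpCAM-negative cells, for all 16637 tested genes (left) and for the 10155 genes with a mean of at least 5 CPM (right). At 4 or more the lost genes number 559 against 17 gained ones on the left, and 119 against 0 on the right.

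The losses reached the detection limit for a small group. A gene was taken as off in one fraction when none of its 6 libraries had more than 3 counts while the other fraction averaged at least 5 CPM, and 22 genes were off in EpCAM-negative cells against 0 off in EpCAM-positive cells, out of 10129 and 10008 genes at that level. Rab25, a small GTPase of apical recycling endosomes, was at a median of 52.9 CPM (32 to 60.3) and was 2337-fold (95% interval 913 to 8581) more abundant in EpCAM-positive cells by summed counts, the interval covering counting error only, a change of -10.92 ± 0.46 (adjusted p = 4.91e-15; -12.12 without EpCAM-negative library 3). Tmprss2, a membrane serine protease, was at a median of 21 CPM (15.7 to 33.2), a ratio of 1128-fold (95% interval 440.2 to 4141), a change of -9.87 ± 0.72 (adjusted p = 7.68e-11). The adaptor Grb7, which binds ErbB receptors, was at a median of 19.9 CPM (12.5 to 22), a ratio of 724-fold (95% interval 309.9 to 2231), a change of -9.28 ± 0.68 (adjusted p = 8.78e-11; -10.11 without EpCAM-negative library 1). In all 3 the EpCAM-negative libraries were at or next to 0 and far below every EpCAM-positive one.

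Ggt6, a gamma-glutamyltransferase family member, had a median of 30.1 CPM (20.7 to 43.5) and a ratio of 6049-fold (95% interval 1085 to 238954), a change of -11.66 ± 0.77 (adjusted p = 1.41e-11; -12.73 without EpCAM-negative library 2). Pigr, the receptor that carries polymeric IgA across epithelia, had a median of 14.9 CPM (6.35 to 31) and a ratio of 3182-fold (95% interval 571 to 125730.0), a change of -10.71 ± 0.71 (adjusted p = 2.56e-10; -11.77 without EpCAM-negative library 3); in both, the low side rests on so few counts that the interval is wide. Another 7 of the 22 genes had no count in any EpCAM-negative library, and against a floor of 3 counts over the whole group they were between 325 and 1018-fold more abundant in EpCAM-positive cells as lower bounds. Among them were Crb3 (at least 336-fold higher) and Pard6b (at least 598-fold higher), which belong to the apical polarity machinery. The cultured line expressed 12 of the 22 at 1 CPM or more and 10 below that. In depleted tumours 15 of the 22 were also called lower in EpCAM-negative cells, although 6 of them were still at 1 CPM or more there.

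Ranked instead by the difference in CPM among called genes whose fractions did not overlap, the leading losses were Krt14, Ly6d, Igfbp5, Postn, Gja1, Epcam, Krt7 and App. Ly6d, a GPI-anchored surface protein of stratified epithelia, went from a median of 1957 CPM (1577 to 2296) to 39.5 CPM (8.75 to 69.5), a change of -5.68 ± 0.34 (adjusted p = 2.3e-12). App, the amyloid precursor protein, an adhesion and signalling receptor of many cells, was at a median of 2552 CPM (2165 to 3240.2) against 1781 CPM (1576 to 2153), a change of -0.51 ± 0.09 (adjusted p = 8.09e-05). In neither did the fractions overlap, as the ranking required.

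The sequence just upstream of these genes was available for 7 of 11 named epithelial genes looked up, as RefSeq windows of 250 bases before the transcript start on GRCm38.p6. The 6 windows below, chosen after their values were seen, are shown because their genes had log2 changes close to each other, from -10.92 to -8.97, while their content of the E-box letters CAGGTG, or CACCTG as read on the other strand, ran from 0 to 4; matches are in capitals.
Epcam (chr17:87635729-87635978, plus strand): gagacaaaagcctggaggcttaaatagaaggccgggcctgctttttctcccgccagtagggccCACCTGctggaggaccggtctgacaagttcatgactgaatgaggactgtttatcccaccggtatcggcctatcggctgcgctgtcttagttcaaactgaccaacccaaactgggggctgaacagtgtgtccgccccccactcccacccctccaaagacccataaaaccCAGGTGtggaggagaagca
Rab25 (chr3:88548280-88548529, minus strand): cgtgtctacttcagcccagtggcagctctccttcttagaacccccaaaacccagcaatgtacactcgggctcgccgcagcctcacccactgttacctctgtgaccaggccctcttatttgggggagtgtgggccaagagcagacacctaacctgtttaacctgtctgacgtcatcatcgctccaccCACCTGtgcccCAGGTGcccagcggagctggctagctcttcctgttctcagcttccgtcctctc
Lsr (chr7:30973470-30973719, minus strand): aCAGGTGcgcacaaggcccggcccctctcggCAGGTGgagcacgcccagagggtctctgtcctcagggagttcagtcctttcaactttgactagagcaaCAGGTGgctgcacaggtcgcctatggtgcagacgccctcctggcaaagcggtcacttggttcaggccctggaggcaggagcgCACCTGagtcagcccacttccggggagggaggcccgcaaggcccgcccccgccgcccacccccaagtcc
Ap1m2 (chr9:21312334-21312583, minus strand): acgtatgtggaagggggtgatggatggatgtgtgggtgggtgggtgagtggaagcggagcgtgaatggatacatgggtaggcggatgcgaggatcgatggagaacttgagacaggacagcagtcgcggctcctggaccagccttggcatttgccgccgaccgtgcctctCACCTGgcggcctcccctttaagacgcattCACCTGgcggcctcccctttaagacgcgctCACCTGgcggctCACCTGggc
Crb3 (chr17:57061951-57062200, plus strand): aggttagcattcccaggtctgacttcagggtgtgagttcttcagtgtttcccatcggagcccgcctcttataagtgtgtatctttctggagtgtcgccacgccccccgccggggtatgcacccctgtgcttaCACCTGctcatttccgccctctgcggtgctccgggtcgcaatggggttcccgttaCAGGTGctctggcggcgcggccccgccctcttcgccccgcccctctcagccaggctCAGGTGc
Spint1 (chr2:119237110-119237359, plus strand): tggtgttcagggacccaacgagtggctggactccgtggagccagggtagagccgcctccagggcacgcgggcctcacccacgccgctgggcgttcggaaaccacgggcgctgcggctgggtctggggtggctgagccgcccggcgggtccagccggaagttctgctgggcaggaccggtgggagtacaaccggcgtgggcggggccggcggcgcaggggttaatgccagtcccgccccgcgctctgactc
All are written 5′ to 3′ on the gene's own strand. Epcam and Rab25 had 2 matches each, Lsr and Ap1m2 had 4 each, Crb3 had 3, and Spint1 had none, although it fell as far as the others. On either strand these letters occurred in 29.3% of 840 windows of genes with a called change of -2 or below, in 12.2% of 508 windows of genes higher by at least 1, in 16% of 14583 windows of tested genes and in 17.2% of all 32851 windows of this length. Other E-boxes, whose letters differ in the middle positions, did not show that order. The letters CAGCTG were in 15.6%, 18.5% and 12.4%, and the letters CACGTG in 4.52%, 7.09% and 7.86% of windows of lower, higher and tested genes. Mean GC content was 56.6% in windows of lower genes and 59.2% in those of tested genes. These shares describe letters in a window, with no test, and a match is neither a binding site nor a cause.

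The membrane-anchored serine protease system that EpCAM belongs with was lower throughout. Matriptase and its relatives cleave adhesion proteins on epithelial surfaces and are held in check by Kunitz inhibitors. All 10 of its 10 tested members were called lower, with a median change of -7.07 and a summed level of 1749 CPM (1239 to 1952) in EpCAM-positive against 146 CPM (99.9 to 181) in EpCAM-negative cells (mean and range over libraries). The protease itself, St14, was at a median of 511 CPM (357 to 587) and kept 35.2 CPM (15.3 to 43.8) in EpCAM-negative cells, a change of -3.89 ± 0.27 (adjusted p = 2.24e-11). Of its inhibitors, Spint1 went from a median of 55.1 CPM (33.3 to 82.1) to 0.030 CPM (0 to 0.185), a change of -9.81 ± 0.48 (adjusted p = 7.03e-14; -10.59 without EpCAM-negative library 1). Spint2 went from a median of 489 CPM (364 to 588) to 113 CPM (71.3 to 139), a change of -2.15 ± 0.17 (adjusted p = 2.66e-10). No library overlapped between fractions for any of these 3, and the members did not fall alike, since Spint1 was left near 0 and Spint2 was not. Prss8, or prostasin, which matriptase activates, fell by 4.82 on the log2 scale (adjusted p = 6.32e-13).

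**Figure D2:**
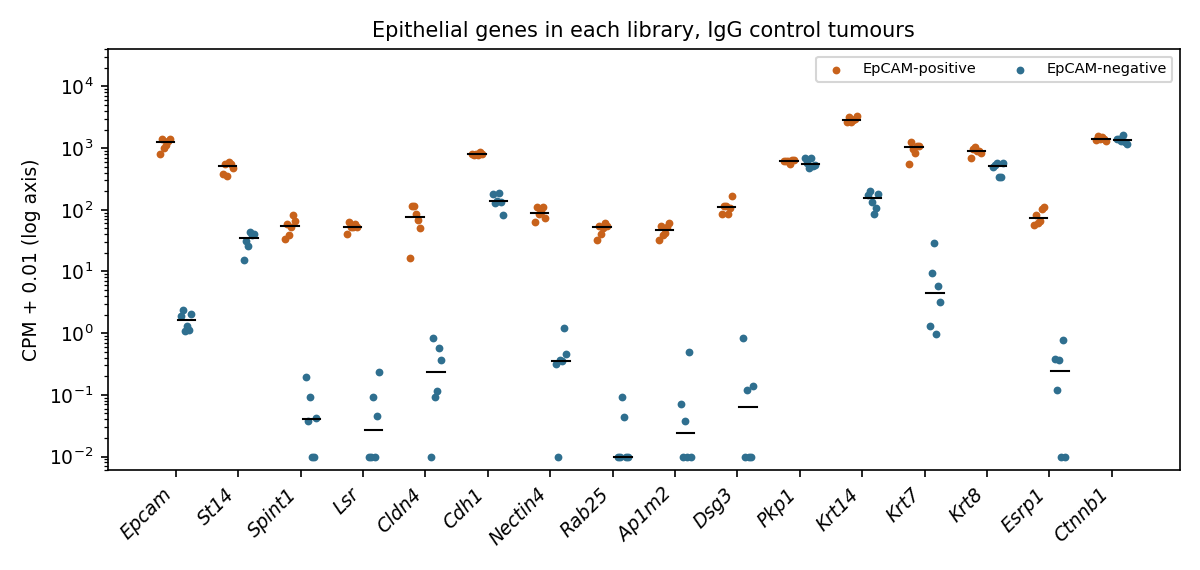
CPM of 16 epithelial genes in each of the 12 libraries, on a log axis after adding 0.01, with EpCAM-positive libraries in orange, EpCAM-negative libraries in blue and a black line at each median of 6 libraries. Pkp1 and Ctnnb1 overlap between fractions, and for the other 14 genes every EpCAM-negative library lies below every EpCAM-positive one.

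Tight junctions, which seal the apical side of epithelia, lost most of their parts. The 21 tested members counted 1 higher, 19 lower and 1 not called, with a median of -4.45, and 14 of the 21 did not overlap between fractions in the lower direction, beside 7.1% of all tested genes. Of the tricellular junction proteins, Lsr, or angulin-1, went from a median of 52.6 CPM (41 to 64) to 0.0174 CPM (0 to 0.225), a change of -9.77 ± 0.43 (adjusted p = 1.03e-14; -10.84 without EpCAM-negative library 6). Ildr1, or angulin-2, went from a median of 156 CPM (113 to 173) to 1.74 CPM (0.245 to 3.72), a change of -6.38 ± 0.45 (adjusted p = 5.0e-11). Among claudins, which form the paracellular seal, Cldn4 was at a median of 76.4 CPM (16.4 to 116) against 0.229 CPM (0 to 0.835), a change of -7.83 ± 0.78 (adjusted p = 1.92e-08; -8.45 without EpCAM-negative library 2). Cldn3 was at a median of 102 CPM (52.6 to 115) against 7.39 CPM (4.17 to 10.2), a change of -3.69 ± 0.21 (adjusted p = 8.21e-13). The immunoglobulin-type adhesion proteins kept more of their transcript. F11r (JAM-A) was at a median of 389 CPM (330.2 to 439) against 94.2 CPM (76.8 to 147), a change of -1.93 ± 0.11 (adjusted p = 4.39e-13). Cxadr, the coxsackie-adenovirus receptor, was at a median of 247 CPM (189 to 289.9) against 71.6 CPM (61.1 to 105), a change of -1.70 ± 0.14 (adjusted p = 3.42e-10). The scaffold Tjp1 (ZO-1) was not called, with a change of 0.31 ± 0.20 (adjusted p = 0.28), and the 1 member called higher was Cgnl1, a paracingulin, a change of 0.31 ± 0.12 (adjusted p = 0.048; the call was lost in 14 of 18 alternatives, with adjusted p from 0.056 to 0.141).

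Adherens junctions divided by role. The 14 tested members counted 1 higher, 8 lower and 5 not called (median -0.37), and the adhesion receptors carried the large changes. Cdh1, or E-cadherin, stood at a median of 788 CPM (777 to 849) and 136 CPM (82.4 to 187), a change of -2.49 ± 0.20 (adjusted p = 2.66e-10), so EpCAM-negative cells kept a lower but clear E-cadherin transcript with no overlap between fractions. Nectin4 went from a median of 89.3 CPM (63.4 to 113) to 0.35 CPM (0 to 1.18), a change of -7.71 ± 0.50 (adjusted p = 1.13e-11). The cytoplasmic partners that tie cadherins to actin moved little. Ctnnb1, or beta-catenin, was at a median of 1387 CPM (1308 to 1564) against 1352 CPM (1161 to 1614) and was not called, with a change of -0.07 ± 0.08 (adjusted p = 0.593). Ctnna1 changed by -0.22 ± 0.06, Jup (plakoglobin) by -0.30 ± 0.08 and the nectin-binding Afdn by -0.64 ± 0.11, all called lower. Vcl, or vinculin, was called higher, a change of 0.59 ± 0.11 (adjusted p = 0.000203).

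The genes of apical-basal polarity and apical trafficking counted 0 higher, 14 lower and 5 not called among 19 tested, with a median of -2.22. Ap1m2, the epithelial subunit of the AP-1B adaptor that sorts cargo to the basolateral side, went from a median of 47.4 CPM (31.8 to 60.3) to 0.0136 CPM (0 to 0.487), a change of -8.97 ± 0.60 (adjusted p = 1.97e-11; -11.00 without EpCAM-negative library 5). Prkcz, an atypical protein kinase C, was at a median of 4.32 CPM (2.95 to 6.38) against 0 CPM (0 to 0.0345), a change of -8.24 ± 0.56 (adjusted p = 2.38e-11). Ezr, or ezrin, which links microvilli to actin, kept more, at a median of 1175 CPM (921 to 1281) against 591 CPM (511 to 638), a change of -0.94 ± 0.07 (adjusted p = 8.78e-11). Pard3, which marks the apical junction but also works in migrating cells, was not called, with a change of 0.06 ± 0.10 (adjusted p = 0.676).

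Desmosomes, the keratin-anchored contacts, showed 9 of 11 tested members lower and 0 higher (median -2.26). Dsg3, a desmosomal cadherin of basal cells, went from a median of 110.5 CPM (85.4 to 165) to 0.0545 CPM (0 to 0.831), a change of -9.25 ± 0.67 (adjusted p = 7.85e-11; -11.02 without EpCAM-negative library 1). Dsc2, its desmocollin partner, went from a median of 16.7 CPM (11.8 to 22) to 0.0871 CPM (0 to 0.965), a change of -5.80 ± 0.50 (adjusted p = 1.17e-09; -6.61 without EpCAM-negative library 6). The plaque proteins fell less or were not called. Pkp3 changed by -2.26 ± 0.14 and Dsp (desmoplakin) by -1.10 ± 0.17, both called. Pkp1 was at a median of 621 CPM (557 to 653) against 556 CPM (476 to 697) and was not called, with a change of -0.08 ± 0.12 (adjusted p = 0.666). Perp, a tetraspan desmosomal protein, changed by -0.41 ± 0.07 and was called. Hemidesmosomes and their laminin ligand, which hold basal cells to the basement membrane, counted 0 higher, 6 lower and 4 not called of 10 (median -0.52). Col17a1, the transmembrane collagen of hemidesmosomes, was at a median of 262 CPM (207 to 322) against 3.5 CPM (2.19 to 6.72), a change of -5.99 ± 0.30 (adjusted p = 7.03e-14). The chains of that laminin fell unequally, by -2.53 ± 0.29 for Lama3 and -0.69 ± 0.11 for Lamb3, both called. The integrin chain Itgb4 changed by -0.57 ± 0.10 and was called, and the cytolinker Plec was not, a change of -0.08 ± 0.15 (adjusted p = 0.729).

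Every one of the 14 tested keratins of 15 listed was called lower (median -6.79), and their summed level went from 6383 CPM (5306 to 7082) to 1202 CPM (845 to 1478). Krt7, a keratin of simple and glandular epithelium, went from a median of 1024 CPM (557 to 1239) to 4.48 CPM (0.965 to 29.3), a change of -6.83 ± 0.58 (adjusted p = 1.24e-09; -7.84 without EpCAM-negative library 3). Krt14, a basal keratin, was at a median of 2896 CPM (2612 to 3259.8) against 154 CPM (84.9 to 203), a change of -4.31 ± 0.17 (adjusted p = 2.26e-15). Its partner Krt5 was at a median of 9.79 CPM (5.79 to 17.6) against 0.0484 CPM (0 to 0.30), a change of -6.97 ± 0.77 (adjusted p = 1.06e-07; -8.04 without EpCAM-negative library 3). Krt6a, whose reads can be shared with its near-identical copy Krt6b, changed by -9.58 ± 0.51 (-10.21 without EpCAM-negative library 2). The pair Krt8 and Krt18, the first keratins of simple epithelia, kept more of their transcript. Krt8 stood at a median of 900.1 CPM (703 to 1030.1) against 510.5 CPM (339 to 575), a change of -0.90 ± 0.12 (adjusted p = 2.97e-06). Krt18 was at a median of 1048 CPM (834 to 1157) against 589 CPM (382 to 734), a change of -0.85 ± 0.12 (adjusted p = 5.14e-06). For both, all EpCAM-negative libraries were below all EpCAM-positive ones, and the changes of the other 12 keratins ran from -9.58 to -2.35.

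Epithelial transcription and splicing factors counted 0 higher, 14 lower and 4 not called among 18 tested of 19 (median -2.09). Esrp1, the epithelial splicing regulator, went from a median of 73.7 CPM (56.1 to 112) to 0.233 CPM (0 to 0.765), a change of -8.22 ± 0.51 (adjusted p = 5.06e-12). Esrp2 went from a median of 42.4 CPM (37.8 to 44.7) to 1.64 CPM (0.791 to 2.99), a change of -4.58 ± 0.38 (adjusted p = 7.68e-10). The ETS factor Ehf was at a median of 174 CPM (164 to 287) against 5.41 CPM (2.64 to 10.5), a change of -4.94 ± 0.37 (adjusted p = 9.61e-11). The alveolar ETS factor Elf5 was at a median of 23.8 CPM (14.2 to 47.1) against 2.14 CPM (0.87 to 2.8), a change of -3.60 ± 0.38 (adjusted p = 5.5e-08). These 4 separated fully between fractions. The basal factor Trp63 changed by -0.76 ± 0.17 and was called lower. Gata3, the luminal factor, was at a median of 101 CPM (76.8 to 115) against 91.2 CPM (80.8 to 108) and was not called, with a change of -0.10 ± 0.11 (adjusted p = 0.566).

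The 16 listed EMT-inducing factors counted 4 higher, 6 lower and 6 not called (median -0.12). Zeb1 was at a median of 24.4 CPM (15.7 to 32.9) against 85.5 CPM (69.3 to 94.1), a change of 1.74 ± 0.21 (adjusted p = 6.12e-07). Zeb2 was at a median of 13.2 CPM (7.49 to 30.6) against 41.5 CPM (38.8 to 66.4), a change of 1.63 ± 0.26 (adjusted p = 2.16e-05). Neither overlapped between fractions. The SNAI family members moved in opposite directions. Snai1 rose from a median of 17.3 CPM (12.8 to 20.0) to 35.1 CPM (30.3 to 44.9), a change of 1.09 ± 0.13 (adjusted p = 6.56e-07). Snai2, also a factor of basal mammary cells, fell from a median of 18.3 CPM (13.9 to 24.8) to 1.73 CPM (1.34 to 4.65), a change of -3.00 ± 0.30 (adjusted p = 1.85e-08). Twist1 was at a median of 0.137 CPM (0.0329 to 0.193) against 0.485 CPM (0.185 to 0.736). Prrx1 was at a median of 0.743 CPM (0.242 to 1.12) against 0.249 CPM (0.129 to 0.739). These 2 were near the detection limit in both fractions and were not called. Runx1 and Foxc1 were called lower, with changes of -0.62 ± 0.09 and -0.52 ± 0.10. Sox9, a progenitor factor, was not called at a median of 1529 CPM (1249 to 1714) against 1193 CPM (997 to 1765), a change of -0.25 ± 0.11 (adjusted p = 0.113).

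**Figure D3:**
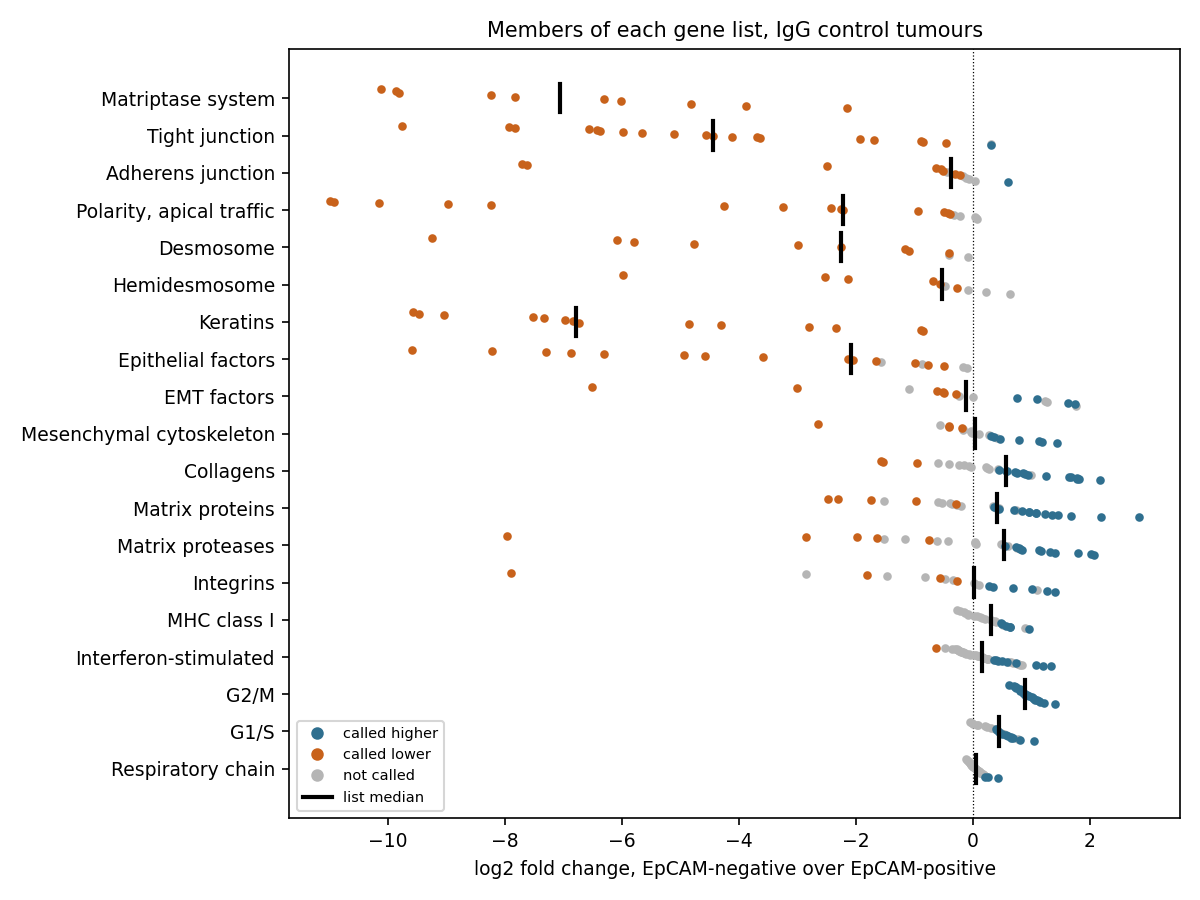
Log2 change of each tested member of 19 gene lists (points, spread in y within a list), EpCAM-negative over EpCAM-positive, blue where called higher, orange where called lower and grey where not called, with a black bar at each list's median. Of the 8 epithelial lists at the top, 6 reach below -8 (adherens junctions and hemidesmosomes do not), whereas the highest point of the plot, in the matrix protein list, stands at 2.84.

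Lineage markers of the mammary gland, with which the lists above share several members, counted 1 higher, 12 lower and 5 not called of 18 tested luminal genes and 1 higher, 7 lower and 7 not called of 15 basal ones. Ltf, or lactoferrin, a secreted luminal product, went from a median of 60.5 CPM (16.7 to 116) to 0.628 CPM (0.0643 to 1.84), a change of -6.34 ± 0.66 (adjusted p = 4.57e-08). Cd24a, the surface marker used to sort mammary epithelium, went from a median of 184 CPM (156 to 243) to 28.8 CPM (18 to 49.8), a change of -2.56 ± 0.17 (adjusted p = 1.13e-11). Besides keratins, the basal genes called lower were Trp63, given above, the stem cell marker Lgr6, with a change of -3.01 ± 0.36 (-3.60 without EpCAM-negative library 6), and the smooth muscle genes Myh11 and Cnn1. Myh11 changed by -6.03 ± 1.07 (-8.60 without EpCAM-negative library 5) and Cnn1 by -2.64 ± 0.97 (the call was lost in 11 of 18 alternatives, with adjusted p from 0.0548 to 0.171). Procr, the protein C receptor, was called higher with a change of 0.92 ± 0.23 (adjusted p = 0.00315). Mme (CD10) was at a median of 775 CPM (632 to 1161) against 1026 CPM (449 to 1429). Id4 changed by 0.13 ± 0.19 and Acta2, smooth muscle actin, by 0.41 ± 0.43. None of the 3 was called.

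The abundant gains were secreted and matrix proteins. The ranking by difference in CPM, a scale that depends on transcript length, took only called genes whose fractions did not overlap. Its leading gains were Spp1, Fn1, Cst3, Mgp, Timp2, Fbln2, Col18a1 and Sparc. Cst3, or cystatin C, a secreted inhibitor of cysteine proteases, rose from a median of 3049 CPM (1489 to 4531) to 9291 CPM (7734 to 13264), a change of 1.70 ± 0.20 (adjusted p = 3.9e-07). Timp2, an inhibitor of metalloproteases that also helps to activate proMMP2, rose from a median of 1628 CPM (1187 to 2177) to 3515 CPM (3201 to 4222), a change of 1.12 ± 0.10 (adjusted p = 2.8e-09). Mgp, matrix Gla protein, an inhibitor of calcification, rose from a median of 424 CPM (279 to 636) to 2258 CPM (1462 to 3303), a change of 2.40 ± 0.29 (adjusted p = 3.64e-07). All 3 were separated between fractions, as that ranking required. Sparc, a collagen-binding matricellular protein, was at a median of 1505 CPM (1122 to 1828) against 2949 CPM (2386 to 3178), a change of 0.96 ± 0.11 (adjusted p = 2.43e-07). Col18a1, the basement membrane collagen that is the source of endostatin, was at a median of 3413 CPM (2955 to 3792) against 5102 CPM (4368 to 5635), a change of 0.56 ± 0.09 (adjusted p = 3.01e-05). The osteopontin gene Spp1 was at a median of 33865 CPM (26564 to 49515) against 75593 CPM (56046 to 88969.8), a change of 1.08 ± 0.15 (adjusted p = 5.4e-06). Its 2 ranges did not meet, which the ranking also required.

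Gains were also ranked by ratio, among called genes of at least 50 CPM in the higher fraction whose fractions did not overlap. The leading ones named here were also secreted or membrane proteins. Sema7a, a membrane-anchored semaphorin, was at a median of 15.6 CPM (8.65 to 26.8) against 91.5 CPM (55.2 to 124), a change of 2.49 ± 0.25 (adjusted p = 2.72e-08). Hsd11b1, which regenerates active glucocorticoid, was at a median of 38 CPM (21.1 to 47.7) against 168 CPM (111 to 264), a change of 2.24 ± 0.22 (adjusted p = 1.08e-08). Ccdc80, a secreted matrix-binding protein, was at a median of 115 CPM (69.9 to 134) against 508 CPM (265 to 739), a change of 2.22 ± 0.28 (adjusted p = 6.87e-07). The ranking also named Cd248 (endosialin, 2.29 ± 0.38), Gjb2 (connexin 26, 2.20 ± 0.34) and Adamts2 (the procollagen N-proteinase, 2.20 ± 0.14), each by log2 change. Gjb2 rose while another gap junction gene, Gja1 (connexin 43), was among the largest losses in CPM, at a median of 2439 CPM (2042 to 2599) against 1061 CPM (811 to 1171), a change of -1.22 ± 0.09 (adjusted p = 1.74e-10).

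Collagens and the enzymes that fold and cross-link them counted 15 higher, 3 lower and 11 not called of 29 (median 0.56), and their summed level went from 9945 CPM (8808 to 10999) to 15760.4 CPM (14305 to 17849). Col5a1, which starts fibrils, rose from a median of 96 CPM (56.9 to 157) to 369 CPM (265 to 439), a change of 1.81 ± 0.22 (adjusted p = 3.64e-07). Col6a3, a chain of the beaded microfibrils around cells, went from a median of 165 CPM (76.2 to 557) to 925 CPM (671 to 1453), a change of 2.17 ± 0.42 (adjusted p = 0.000309). The fibrillar chain Col1a1 was at a median of 484 CPM (268 to 683) against 1663 CPM (448 to 2462), a change of 1.67 ± 0.36 (adjusted p = 0.00095). Col3a1, the type III chain, was at a median of 44 CPM (23.9 to 66.5) against 192 CPM (27.4 to 222), a change of 1.78 ± 0.41 (adjusted p = 0.00156). Col1a1 and Col3a1 were called higher although their libraries overlapped between fractions. Col1a2, also a type I chain, was lower, as stated with the fibroblast genes below. Serpinh1, the collagen chaperone HSP47, rose by 0.85 ± 0.11. Not every collagen rose: Col8a1 was at a median of 1220.2 CPM (591 to 1518) against 1069 CPM (527 to 1278) and was not called, with a change of -0.24 ± 0.23 (adjusted p = 0.485). Col11a1 was called lower, at a median of 489.8 CPM (341 to 679.9) against 143 CPM (106 to 290.3), a change of -1.57 ± 0.31 (adjusted p = 0.000309).

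Non-collagen matrix proteins counted 14 higher, 5 lower and 11 not called of 30 (median 0.42), summing to 61150.1 CPM (47197 to 76111) against 118421 CPM (101387 to 128682). Fn1, or fibronectin, was at a median of 8637 CPM (6853 to 12075) against 23100.1 CPM (17572 to 33622), a change of 1.45 ± 0.16 (adjusted p = 1.02e-07). Fbln2 changed by 0.70 ± 0.11, and the laminin chain Lamc1 by 1.23 ± 0.13, both called higher like Fn1. None of the 3 overlapped, which the ranking by CPM had required of Fn1 and Fbln2. Postn, or periostin, a product of stromal and mesenchymal cells, fell instead, from a median of 2025 CPM (1609 to 2859.8) to 574 CPM (409 to 956), a change of -1.75 ± 0.20 (adjusted p = 2.23e-07). Dcn, the proteoglycan decorin, was at a median of 2041 CPM (781 to 2346) against 1282 CPM (519 to 1997) and was not called, with a change of -0.53 ± 0.35 (adjusted p = 0.284). Matrix proteases and their inhibitors counted 12 higher, 5 lower and 11 not called of 28 (median 0.53). Mmp14, the membrane-type metalloprotease, changed by 1.15 ± 0.08 and was called. Adamts4, an aggrecanase, went from a median of 265 CPM (142 to 335) to 877 CPM (710.0 to 1012), a change of 1.79 ± 0.15 (adjusted p = 6.78e-10). Mmp3, stromelysin-1, went from a median of 552 CPM (326 to 892) to 2394 CPM (776 to 3937), a change of 2.07 ± 0.25 (adjusted p = 4.21e-07), with overlapping ranges. The epithelial serpin Serpinb5 (maspin) fell from a median of 363 CPM (324 to 449) to 95.2 CPM (61.2 to 132), a change of -1.99 ± 0.12 (adjusted p = 2.69e-12).

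**Figure D4:**
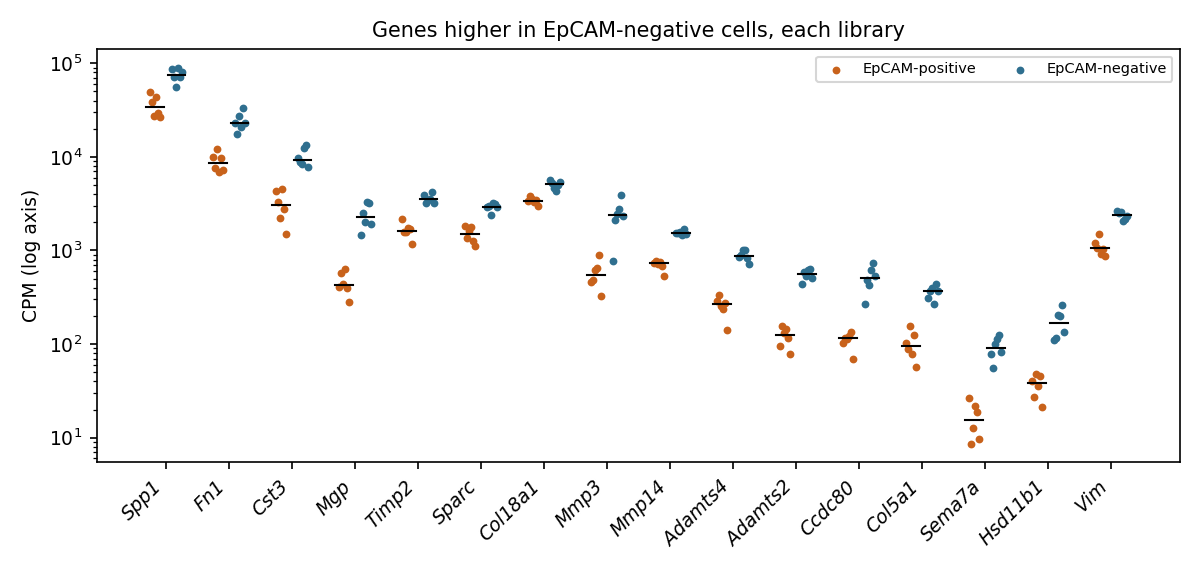
CPM of 16 genes called higher in EpCAM-negative cells in each of the 12 libraries, on a log axis, with EpCAM-positive libraries in orange, EpCAM-negative libraries in blue and a black line at each median of 6 libraries. The medians of the fractions differ by less than 1 order on the axis for every gene shown, and in Mmp3 the lowest EpCAM-negative library lies below the highest EpCAM-positive one.

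Integrins, the receptors for these proteins, counted 6 higher, 4 lower and 9 not called of 19 (median 0.02). Itgb6, the epithelial chain that activates latent TGF-beta, went from a median of 37 CPM (23.8 to 49.9) to 0.115 CPM (0.0322 to 0.334), a change of -7.90 ± 0.62 (adjusted p = 2.45e-10). The fibronectin receptor chain Itga5 rose from a median of 157 CPM (122 to 229) to 327 CPM (283 to 389.7), a change of 1.01 ± 0.12 (adjusted p = 1.94e-07). Itga8 went from a median of 79.8 CPM (68 to 113) to 184 CPM (151 to 341), a change of 1.39 ± 0.22 (adjusted p = 1.65e-05). The shared chain Itgb1 changed by 0.27 ± 0.06 and was called, and Itgb5 was not, a change of 0.10 ± 0.09 (adjusted p = 0.428). Cytoskeletal genes linked to the mesenchymal state counted 7 higher, 4 lower and 9 not called of 20 (median 0.04). With only the 12 libraries fitted, and without EpCAM-negative library 1, 3, 4 or 6 or EpCAM-positive library 4, 5 or 6, 2 were called lower. S100a4, or FSP1, was at a median of 60.2 CPM (53.8 to 102) against 198 CPM (132 to 234), a change of 1.44 ± 0.17 (adjusted p = 4.19e-07). The intermediate filament gene Nes (nestin) was at a median of 25.6 CPM (16.6 to 41.1) against 60.0 CPM (48.3 to 68.8), a change of 1.17 ± 0.16 (adjusted p = 1.8e-06). The actin cross-linker Actn4 was not called, with a change of -0.01 ± 0.08 (adjusted p = 0.936).

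The ErbB receptors, to which Her2 belongs, and their ligands and adaptors counted 4 higher, 4 lower and 6 not called of 14 tested. Erbb3, the kinase-poor partner of Her2, went from a median of 44.1 CPM (32.8 to 65.9) to 1.18 CPM (0 to 2.29), a change of -5.31 ± 0.50 (adjusted p = 6.95e-09). The ligand genes split, with Tgfa lower at a median of 230.3 CPM (205 to 275) against 107 CPM (62 to 157), a change of -1.12 ± 0.19 (adjusted p = 5.45e-05). Hbegf was higher at a median of 203 CPM (112 to 244) against 313 CPM (272 to 365), a change of 0.70 ± 0.17 (adjusted p = 0.00319). Areg, or amphiregulin, was higher too, a change of 1.03 ± 0.21 (adjusted p = 0.000457). Errfi1, a feedback inhibitor of these receptors, rose by 0.58 ± 0.14. Other growth factor genes counted 9 higher, 7 lower and 17 not called among 33. Fgfbp1, an FGF carrier of epithelia, fell from a median of 112 CPM (94.8 to 182) to 3.38 CPM (1.38 to 9.54), a change of -4.94 ± 0.43 (adjusted p = 1.57e-09). Igfbp5, an IGF-binding protein, went from a median of 1653 CPM (772 to 2370.3) to 57.4 CPM (24.5 to 224), a change of -4.33 ± 0.51 (adjusted p = 2.95e-07; -4.98 without EpCAM-negative library 4). The receptor tyrosine kinase gene Pdgfrb was at a median of 445 CPM (234 to 472) against 1113 CPM (568 to 1533), a change of 1.41 ± 0.22 (adjusted p = 1.53e-05). Fgfr1 was at a median of 420.4 CPM (321 to 578) against 722 CPM (597 to 1004), a change of 0.82 ± 0.13 (adjusted p = 1.81e-05). Both rose without overlap between fractions.

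Genes of TGF-beta and BMP signalling counted 10 higher, 9 lower and 9 not called of 28 (median 0.07). The type II receptor gene Tgfbr2 rose from a median of 335 CPM (295 to 344) to 579.9 CPM (440.0 to 778), a change of 0.87 ± 0.11 (adjusted p = 1.25e-06). Ltbp3, which holds latent TGF-beta in the matrix, rose by 0.55 ± 0.11. The repressor of SMAD signalling Skil fell by 0.81 (adjusted p = 9.95e-07), and the ligand gene Tgfb3 was not called, with a change of -0.08 ± 0.10 (adjusted p = 0.632). Wnt and Notch genes counted 4 higher, 9 lower and 16 not called of 29. Wnt5b, a non-canonical ligand, went from a median of 80.6 CPM (41.1 to 114) to 4.74 CPM (2.18 to 7.38), a change of -4.01 ± 0.26 (adjusted p = 9.8e-12). The receptor gene Fzd7 changed by -1.56 ± 0.19 and was called. Notch3 went from a median of 26.5 CPM (14.9 to 40.4) to 1.77 CPM (0 to 4.83), a change of -3.76 ± 0.58 (adjusted p = 1.81e-05). The Notch target Hes1 rose by 0.66 ± 0.14.

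CD8 T cells see tumour cells through antigens presented by MHC class I. Class I chains and peptide-loading genes counted 6 higher, 0 lower and 17 not called among 23, with a median of 0.30. The share called in either direction was close to the 27.9% of all tested genes. By direction, 26.1% were called higher and 0 lower, beside 13.4% and 14.5% of all tested genes. Without EpCAM-positive library 1, 11 were called higher, and without EpCAM-positive library 3 or 6, 2 and 3 were called lower. B2m, the shared light chain, was at a median of 714 CPM (422 to 1300.3) against 1337 CPM (1187 to 2005), a change of 0.96 ± 0.18 (adjusted p = 0.000227). The immunoproteasome subunit Psmb10 changed by 0.64 ± 0.13. H2-D1, a heavy chain whose reads can be shared with H2-K1, was at a median of 2194 CPM (1296 to 4023) against 3137 CPM (2381 to 4464), a change of 0.48 ± 0.17 (adjusted p = 0.041; the call was lost in 10 of 18 alternatives, with adjusted p from 0.0688 to 0.157). Class II genes, which antigen-presenting cells use for CD4 T cells, counted 0 higher, 6 lower and 3 not called of 9 tested of 10. The invariant chain Cd74 was at a median of 36.5 CPM (7.71 to 248) against 7.55 CPM (3.44 to 18.1), a change of -2.96 ± 0.55 (adjusted p = 0.000175; -1.83 without EpCAM-positive library 1). The highest value was EpCAM-positive library 1, next to 7.71 to 38.1 CPM in the other 5.

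Interferon-stimulated genes counted 9 higher, 1 lower and 34 not called of 44 (median 0.16). These shares were 20.5% higher and 2.27% lower, beside 13.4% and 14.5% of all tested genes. Ifit2, an antiviral RNA-binding protein, was at a median of 13.6 CPM (9.59 to 16.7) against 34.1 CPM (30.5 to 39.6), a change of 1.33 ± 0.17 (adjusted p = 1.44e-06). The feedback inhibitor Socs1 was at a median of 8.16 CPM (5.27 to 11) against 17.6 CPM (13.5 to 20.5), a change of 1.08 ± 0.18 (adjusted p = 4.15e-05). The transcription factor Irf1 was not called, with a change of 0.16 ± 0.16 (adjusted p = 0.497). Chemokine genes counted 3 higher (12.5%), 4 lower (16.7%) and 17 not called of 24. Cxcl16 fell from a median of 62.6 CPM (52 to 78.9) to 15.8 CPM (11.4 to 29.5), a change of -1.92 ± 0.21 (adjusted p = 1.2e-07). Cxcl14 rose from a median of 15.8 CPM (6.73 to 25.9) to 62.8 CPM (25.5 to 87.4), a change of 1.84 ± 0.31 (adjusted p = 4.24e-05) with overlap, and the neutrophil chemokine Cxcl1 was not called, with a change of 0.13 ± 0.25 (adjusted p = 0.762). Cytokine and receptor genes counted 7 higher (24.1%), 6 lower (20.7%) and 16 not called of 29. Il33, an alarmin, changed by 0.69 ± 0.18 and its coreceptor gene Il1rap by 0.99 ± 0.16, both called higher.

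Immune inhibitory and costimulatory ligands, listed together, counted 4 higher, 10 lower and 7 not called of 21 (median -0.36). Vsir (VISTA) fell from a median of 262 CPM (188 to 396) to 119 CPM (101 to 175), a change of -1.14 ± 0.17 (adjusted p = 1.22e-05). Cd276 (B7-H3) rose by 0.51 ± 0.09, and Cd47, the signal against phagocytosis, was not called, with a change of 0.05 ± 0.07 (adjusted p = 0.617). Genes of immunosuppressive metabolism counted 3 higher, 4 lower and 10 not called of 17. Arg1, an arginine-degrading enzyme, went from a median of 230.4 CPM (109 to 301) to 3.64 CPM (0.308 to 5.11), a change of -6.03 ± 0.44 (adjusted p = 8.78e-11). Ptges, a prostaglandin E synthase, was at a median of 15.1 CPM (14.3 to 16.7) against 4.79 CPM (4.27 to 7.14), a change of -1.55 ± 0.21 (adjusted p = 2.04e-06). The cyclooxygenase gene Ptgs1 was at a median of 26 CPM (15.6 to 43.1) against 71.1 CPM (52.4 to 98.9), a change of 1.38 ± 0.20 (adjusted p = 9.29e-06). Ptgs2 was not called, with a change of 0.65 ± 0.31 (adjusted p = 0.127). Complement genes counted 4 higher, 5 lower and 7 not called of 16, among them the lectin-pathway protease Masp1 at a median of 56.6 CPM (35.7 to 121) against 159 CPM (129.7 to 172), a change of 1.13 ± 0.25 (adjusted p = 0.00126). C3 was not called, with a change of -0.29 ± 0.20 (adjusted p = 0.30). Genes of cell death counted 8 higher, 2 lower and 16 not called of 26, with the necroptosis effector Mlkl higher by 0.80 ± 0.09 and the p53 target Pmaip1 lower by 1.50 (adjusted p = 7.98e-05).

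All 24 listed G2/M genes were called higher, beside 13.4% of all tested genes. Their median was 0.89 and their summed level 661 CPM (359 to 956) against 1261 CPM (884 to 1746). Of the 24, 4 separated fully between fractions, beside 6.31% of all tested genes in this direction. Tpx2, a spindle assembly factor, was at a median of 42.7 CPM (19.4 to 80.0) against 100.0 CPM (68.7 to 139.5), a change of 1.10 ± 0.25 (adjusted p = 0.00176). Ccnb2, cyclin B2, was at a median of 27.6 CPM (16.9 to 43.9) against 60.4 CPM (45.2 to 77.4), a change of 1.05 ± 0.19 (adjusted p = 9.27e-05). Top2a, the replication-linked topoisomerase, was at a median of 86.4 CPM (51.4 to 125) against 141 CPM (94.9 to 203), a change of 0.74 ± 0.18 (adjusted p = 0.00227). The gains were small and shared by the whole list, and the ranges met in most genes. Genes of DNA replication and the G1/S step counted 11 higher, 0 lower and 13 not called of 24 (median 0.44), a number that went to 4 with only the 12 libraries fitted and to 6 or 7 without EpCAM-negative library 1 or 3 or EpCAM-positive library 4 or 5. Ccnd1, cyclin D1, changed by 0.46 ± 0.08 and its kinase Cdk4 by 0.44 ± 0.05, both called higher, and the inhibitor Cdkn1a (p21) by -0.66 ± 0.13, called lower.

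Glycolysis and hypoxia genes counted 5 higher (19.2%), 4 lower (15.4%) and 17 not called among 26 (median -0.07), beside 13.4% higher and 14.5% lower of all tested genes. Those called higher numbered 2 without EpCAM-positive library 5 or 6 or with only the 12 libraries fitted, and 3 without EpCAM-positive library 1 or EpCAM-negative library 2. Those called lower numbered 2 with only the 12 libraries fitted and without EpCAM-negative library 4, 5 or 6 or EpCAM-positive library 3. In this list Ndrg1, a hypoxia and differentiation gene, was lower at a median of 765 CPM (426 to 1110.2) against 328 CPM (265 to 544), a change of -1.15 ± 0.18 (adjusted p = 1.59e-05). The glucose transporter gene Slc2a1 was lower by 0.60 (adjusted p = 0.00102), and Pkm, pyruvate kinase, was not called, with a change of 0.20 ± 0.08 (adjusted p = 0.0777). Lipid synthesis genes counted 6 higher (27.3%), 1 lower (4.55%) and 15 not called of 22. The regulator Srebf1 fell from a median of 784 CPM (612 to 954) to 324 CPM (238 to 537), a change of -1.18 ± 0.15 (adjusted p = 1.09e-06), while Insig1, which restrains sterol synthesis, rose by 0.98 ± 0.15. Respiratory chain genes counted 3 higher, 0 lower and 22 not called of 25 tested of 28, with a median of 0.05 and no member changed by more than 0.43. Redox genes counted 6 higher, 5 lower and 8 not called of 19, and genes of the unfolded protein and amino acid responses 6 higher, 6 lower and 7 not called of 19. Atf3, a stress factor also induced by tissue dissociation, was lower, at a median of 827 CPM (670.3 to 1385) against 342 CPM (265 to 558), a change of -1.35 ± 0.30 (adjusted p = 0.00116). Also lower were Xbp1 (-0.55 ± 0.08) and Slc3a2, the heavy chain of amino acid exchangers (-0.52 ± 0.11).

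Immediate-early genes, which rise during enzymatic digestion of tissue, counted 4 higher, 5 lower and 20 not called of 29 (median -0.11). These shares were 13.8% higher and 17.2% lower, beside 13.4% and 14.5% of all tested genes. Fos was at a median of 5828 CPM (4193 to 6607) against 4231 CPM (3678 to 6172) and was not called, with a change of -0.32 ± 0.14 (adjusted p = 0.103). Jun was lower by 0.45 (adjusted p = 0.00692), and Fosl1 (FRA-1) was higher, at a median of 31.4 CPM (20.4 to 66.8) against 80.7 CPM (43.6 to 148), a change of 1.29 ± 0.23 (adjusted p = 0.000135).

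Markers of the other cell types that a sort from digested tumour could hold were summed in each library. Macrophage genes counted 2 higher, 12 lower and 6 not called of 20; the sum was 306 CPM (181 to 377) against 134 CPM (107 to 153), of which Cd14 and, in EpCAM-positive cells, Csf1r were among the larger terms. With only the 12 libraries fitted, 7 macrophage genes were called lower and 1 higher. That count of 1 higher also came with RLE factors and with no filter. It came too without EpCAM-negative library 2, 3, 4, 5 or 6 or EpCAM-positive library 1, 2, 4, 5 or 6. Of 18 T and NK cell genes, 13 did not pass the filter, among them Cd3d, Cd3e, Cd3g, Cd8a and Gzmb, and Cd4 was at 0 in all 12 libraries; the 5 tested ones counted 1 higher, 0 lower and 4 not called and summed to 2.11 CPM (1.22 to 3.12) against 3.26 CPM (2.79 to 3.62). The higher one was Trac, a T cell receptor constant chain, at a median of 1.38 CPM (0.802 to 1.84) against 3.06 CPM (2.45 to 3.62), a change of 1.20 ± 0.27 (adjusted p = 0.00133), without overlap. The 4 tested of 9 B and plasma cell genes counted 0 higher, 2 lower and 2 not called and the 7 tested of 14 granulocyte and dendritic genes 0 higher, 2 lower and 5 not called, and Ms4a1, Cd79a, Cd79b and Pax5 did not pass the filter. B and plasma cell genes called lower numbered 0 with only the 12 libraries fitted, where 1 was called higher. They numbered 1 with DESeq2, with no filter, and without EpCAM-negative library 1, 2, 3 or 4 or EpCAM-positive library 1, 3 or 4.

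Endothelial genes counted 1 higher, 5 lower and 8 not called of 14 and summed to 42 CPM (21.4 to 79.8) against 59.9 CPM (35.5 to 97.7), most of it Flt1, which was called higher, a change of 1.36 ± 0.28 (adjusted p = 0.000553); Pecam1, the defining adhesion gene of endothelium, was at means of 2.84 ± 1.7 CPM and 0.83 ± 0.26 CPM (SD). Pericyte genes counted 1 higher, 3 lower and 4 not called of 8 tested of 10 and summed to 482 CPM (295 to 641) against 1128 CPM (577 to 1687), mostly Pdgfrb. Fibroblast genes counted 6 higher, 1 lower and 5 not called of 12 tested of 14, with a median of 1.55 and a sum of 3092 CPM (1634 to 3869) against 4015 CPM (2071 to 5666), the ranges of which overlapped; Fap and Thy1 did not pass the filter, Col1a2 was lower, and Dcn was not called. Muscle, fat and nerve genes (0 higher, 2 lower and 4 not called of 6 tested of 14) and red cell and platelet genes (0 higher, 3 lower and 5 not called of 8 tested of 10) were near 0. Several fibroblast and pericyte genes also mark mesenchymal tumour cells, and the part of other cells in the gains of collagens and matrix genes was not tested.

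The same contrast was computed in tumours of T cell-depleted mice taken on day 20, in the same fit, to see how the 33 genes reported here by size of change or by being off behaved there. Treatment and day differ together between these tumours and the control tumours and cannot be told apart. In depleted tumours 4749 genes were called (28.5%), 2371 higher and 2378 lower, and the difference between the 2 changes was called for 2996 genes (18%). Of the 19 named losses 16 were called lower in depleted tumours too, and 0 were called higher. All 33 genes were picked by values of the control tumours, a choice that by itself favours larger changes there, so the sizes below are a description. The losses had a median of -3.58 in depleted and -9.25 in control tumours, and for 16 of the 19 the difference itself was called. Krt6a changed by -9.58 in control and -1.30 ± 0.40 in depleted tumours (difference -8.27 ± 0.65, adjusted p = 2.48e-09). Epcam changed by -9.49 and -4.12 ± 0.30 (difference -5.37 ± 0.43, adjusted p = 2.64e-09). On average the EpCAM-negative libraries of depleted tumours still held 140 CPM of Epcam, beside 2437 CPM in their EpCAM-positive counterparts. The same gate sorted both sets of tumours, but the purity of the sorted fractions was not tested. How far stray EpCAM-positive cells account for the transcripts left in that fraction was therefore not tested either. Cldn4 changed by -7.83 and -3.96 ± 0.57 (difference -3.87 ± 0.95, adjusted p = 0.00491). In depleted tumours EpCAM-negative cells held 382 CPM of Krt7 and 474 CPM of Krt14 on average.

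Of the 14 named gains, picked in the same way, 6 were called higher in depleted tumours, 6 were not called and 2 were called lower, and for 12 the difference was called, with a median gain of 1.95 in control and 0.36 in depleted tumours. The 2 that went the other way were Cst3 (1.70 in control and -0.83 ± 0.20 in depleted tumours; difference 2.53 ± 0.28, adjusted p = 5.43e-07) and Col18a1 (0.56 and -0.69 ± 0.09; difference 1.25 ± 0.13, adjusted p = 1.47e-07). Mgp had means of 43.7 and 54 CPM in the 2 fractions there (EpCAM-positive first), a change of 0.30 ± 0.28 (difference 2.10 ± 0.39, adjusted p = 0.000373). Hsd11b1 changed by -0.30 ± 0.24 there (difference 2.54 ± 0.32, adjusted p = 3.33e-06). Cd248 was the gene with the larger gain in depleted tumours, 4.75 ± 0.50 (difference -2.46 ± 0.62, adjusted p = 0.00627). Fn1 (1.20 ± 0.16; difference 0.25 ± 0.22, adjusted p = 0.489) and Sema7a (1.57 ± 0.25; difference 0.92 ± 0.34, adjusted p = 0.0648) rose in depleted tumours too, and their differences were not called. Of the 14 gained genes 5 were under 1 CPM in the cultured line.

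**Figure D5:**
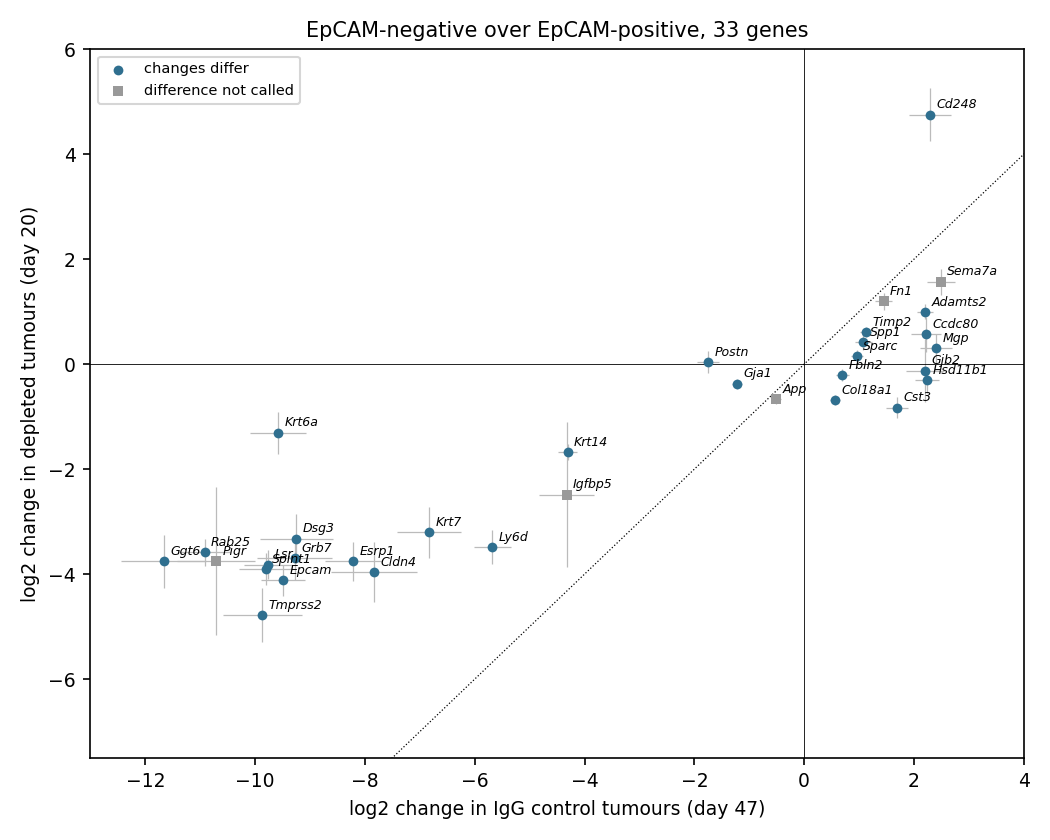
Log2 change between EpCAM-negative and EpCAM-positive cells for 33 named genes in IgG control tumours (x axis, day 47) and in depleted tumours (y axis, day 20), with bars of 1 SE and the dotted line of equal change, blue points where the difference is called and grey squares where it is not. The 16 lost genes with a called difference lie above the line of equal change, Cd248 lies above it at the right, and Cst3 and Col18a1 are above 0 on the x axis and below 0 on the y axis.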

How the data were processed

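RNA of sorted cells had been amplified with the SMARTer v4 kit (10, 12 or 14 PCR cycles, no molecular identifiers or strand mark), made into Nextera XT libraries and sequenced as single reads, per the labels' protocols. The authors deposited 1 table of raw counts per gene for all 26 libraries; STAR, DESeq2 1.22.2 and mm9 stand in the submitters' processing notes without further settings. Of 47730 features 47224 were matched to a symbol. The counts were tested with edgeR 4.0.16 (R 4.3.3): TMM factors, filterByExpr, robust quasi-likelihood fit with 1 coefficient per group over all 26 libraries, Benjamini-Hochberg over 16637 genes. The other groups enter through the filter on low counts, the TMM factors and the shared estimate of spread. DESeq2 1.42.0 and the other settings named below were alternatives. On simulated counts the fit was tested before use. Genes were named by rule: those used for sorting, 5 off genes, and up to 3 most abundant and 3 most significant members per list. Also named were the 8 largest folds (at least 50 CPM) and the 8 largest CPM differences each way. Both of these rankings took only called genes whose fractions did not overlap, so non-overlap of the genes they named is not a result. Cgnl1, Cnn1, Col11a1, Col1a2, Col6a3, Crb3, Gata3, Ildr1, Lgr6, Pard6b, Pecam1, Procr, Prrx1, Twist1, Vcl, Zeb2 and the zero value of Cd4 were chosen after their values were seen. Some genes that the rule picks are not reported here. Samples, gene lists and rules were chosen with earlier results of these data known. The filter passes a gene expressed in any group. Reads of a gene and of an overlapping antisense gene cannot be told apart.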

Additional observations from a re-analysis of the deposited data

Results flagged for a closer look

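In 37 of 370 groups of 6 libraries (each named gene in each fraction), the highest or lowest library lay far from the other 5. Its gap exceeded 0.625 of the whole range, Dixon's 95% critical value. Chance alone exceeds that value in about 1 in 20 groups of normally distributed values, which CPM near 0 are not. A single count beside libraries at 0, as for Ggt6 and Pigr below, always exceeds it. Beside each value the range of the other 5 libraries of its fraction is given. In EpCAM-positive library 1, Cd74 was at 248 CPM (7.71 to 38.1), Flt1 at 38.4 CPM (13.5 to 19.6), H2-D1 at 4023 CPM (1296 to 2205) and Itga8 at 113 CPM (68 to 81). There too, Ptgs2 was at 1028 CPM (345 to 553) and Tgfbr2 at 295 CPM (329.8 to 344). In EpCAM-positive library 3, Lama3 was at 186 CPM (241 to 272) and Lamc1 at 262 CPM (136 to 178). In EpCAM-positive library 4, Ehf was at 287 CPM (164 to 194) and Elf5 at 47.1 CPM (14.2 to 25.7). In EpCAM-positive library 5, Cnn1 was at 7.73 CPM (0.164 to 2.6). In EpCAM-positive library 6, Dcn was at 781 CPM (1856 to 2346), Mmp14 at 528 CPM (681 to 769), Slc2a1 at 231 CPM (399 to 467) and Trp63 at 118 CPM (165 to 185). In EpCAM-negative library 1, Cd14 was at 56.8 CPM (24.2 to 33.9), Cd74 at 18.1 CPM (3.44 to 8.49), Dsg3 at 0.831 CPM (0 to 0.129) and F11r at 147 CPM (76.8 to 99.9). There too, Ptprc was at 0.246 CPM (0 to 0.0345). In EpCAM-negative library 2, Cxadr was at 105 CPM (61.1 to 75.7) and Ggt6 at 0.0278 CPM (0 in each of the others). In EpCAM-negative library 3, Itgb5 was at 451 CPM (567 to 635), Krt5 at 0.30 CPM (0 to 0.0923), Krt7 at 29.3 CPM (0.965 to 9.6) and Pigr at 0.0273 CPM (0 in each of the others). There too, Pkp3 was at 22.2 CPM (32.2 to 36.2) and Sparc at 2386 CPM (2912 to 3178). In EpCAM-negative library 4, Igfbp5 was at 224 CPM (24.5 to 84), Lama3 at 87.2 CPM (20.4 to 42.7) and Vsir at 175 CPM (101 to 123). In EpCAM-negative library 5, Ap1m2 was at 0.487 CPM (0 to 0.0615), Erbb2 at 50.1 CPM (57.2 to 59.9), Irf1 at 338 CPM (157 to 224) and Myh11 at 0.73 CPM (0 to 0.0345). In EpCAM-negative library 6, Lgr6 was at 77.9 CPM (8.69 to 34.2) and Lsr at 0.225 CPM (0 to 0.0818). 

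For 28 of 33 genes named by size of change or by being off, the change between fractions in IgG control tumours (day 47) differed from that in depleted tumours (day 20) by the interaction contrast of the edgeR fit. Treatment and day cannot be told apart, and the genes were picked by their values in control tumours. The difference of the log2 changes, control minus depleted, was negative for all 16 of these genes that were lower in EpCAM-negative cells. It was -8.27 for Krt6a, -7.91 for Ggt6, -7.34 for Rab25, -5.95 for Lsr, -5.92 for Dsg3, -5.90 for Spint1, -5.58 for Grb7, -5.37 for Epcam and -5.09 for Tmprss2. It was -4.46 for Esrp1, -3.87 for Cldn4, -3.63 for Krt7, -2.63 for Krt14, -2.20 for Ly6d, -1.79 for Postn and -0.85 for Gja1. Among genes higher in EpCAM-negative cells it was 2.54 for Hsd11b1, 2.53 for Cst3, 2.32 for Gjb2, 2.10 for Mgp, 1.66 for Ccdc80, 1.25 for Col18a1, 1.21 for Adamts2, 0.91 for Fbln2, 0.81 for Sparc, 0.66 for Spp1 and 0.51 for Timp2, and it was -2.46 for Cd248, the only one of these 12 whose change was larger in depleted tumours.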

How the results depend on the processing

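Calls were recomputed under 18 settings. Genes called higher numbered 1830 to 2155 and genes called lower 2161 to 2438 when each of the 12 libraries was left out in turn, and calls of at least 1 on the log2 scale numbered 474 to 612 and 1193 to 1280. RLE factors gave 2111 higher and 2519 lower, upper quartile factors 2157 and 2478, no filter 1939 and 2255, DESeq2 2241 and 2519, and the 12 IgG libraries alone 1971 and 2141. Calls of at least 1 on the log2 scale numbered 529 higher and 888 lower with the 12 IgG libraries alone. Off genes in EpCAM-negative cells numbered 13 at no more than 1 count, 42 at no more than 10 counts, 80 at a level of at least 1 CPM and 3 at a level of at least 20 CPM; in EpCAM-positive cells there were 0 in each. Of 157 called genes named, 154 kept call and direction in all 18 settings; Cgnl1, Cnn1 and H2-D1 lost the call in some, and 0 changed sign. Counting genes with at least 5 counts, or the 200 most abundant genes, kept the library differences on the same side (-772 genes and 4.92 percentage points). Settings by gene level and fit in the counts by size were added after seeing the data. With such zero genes at their bound, list medians were the same except for immunosuppressive metabolism (-0.91 to -0.13) and red cell and platelet genes (-2.51 to -2.43).

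The replicate numbers are shared by both fractions, but no label ties a number to a tumour. Deviations of same-numbered libraries from their group means correlated at 0.05 to 0.17, and in 6 of 6 numbers a library matched its own number best, a hint from the data only. With the replicate number as a block in the 12 libraries, 2327 genes were called higher and 2338 lower (603 and 931 by at least 1), 10 MHC class I genes were higher in place of 6 and 2 lower in place of 0, 7 Wnt and Notch genes higher in place of 4, 10 immediate-early genes lower in place of 5, 5 cell death genes in place of 2, 3 interferon-stimulated in place of 1, 1 chemokine gene in place of 4 and 5 macrophage genes in place of 12. B and plasma cell, granulocyte and dendritic, and red cell and platelet genes called lower went from 2, 2 and 3 to 0. The 12 libraries fitted without a block also gave 0 lower in each of these lists. That fit gave 1 chemokine, 4 cell death and 7 macrophage genes lower, so these moves did not come from the block alone. Over all settings 29 list counts moved by over 1.5 times, 26 of them counts of 5 or fewer, which moved by at most 3 genes except the immediate-early one.

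The median biological coefficient of variation was 0.223. Folds of genes near 0 counts in one fraction are limited by depth.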

Other observations

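Of the S100 proteins, small calcium sensors, only S100a4 was described above. Of 13 listed, 12 were tested and counted 3 higher, 2 lower and 7 not called. S100a14, an epithelial member, was at a median of 89.2 CPM (40.3 to 109) in EpCAM-positive and 7.98 CPM (4.62 to 12.6) in EpCAM-negative cells, a change of -3.28 ± 0.23 (adjusted p = 3.93e-11). S100b, known from glial and melanocytic cells, was at a median of 69.2 CPM (44.4 to 86.7) and 138 CPM (66.4 to 235), a change of 1.11 ± 0.22 (adjusted p = 0.000326). S100a6 was not called, with a change of 0.11 ± 0.13 (adjusted p = 0.585). Both called genes named here changed in opposite directions, and only S100a14 separated fully between fractions.

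Within the redox list, G6pdx, the first enzyme of the pentose phosphate path, was at a median of 93.5 CPM (86.2 to 106) and 137 CPM (117 to 151), a change of 0.53 ± 0.07 (adjusted p = 4.23e-06). Gsr, glutathione reductase, was at a median of 186 CPM (164 to 213) and 117 CPM (95.6 to 144), a change of -0.67 ± 0.09 (adjusted p = 2.64e-06). Nfe2l2, the transcription factor NRF2 that controls many of these genes, was not called, with a change of 0.19 ± 0.08 (adjusted p = 0.0671).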
